A study of Mus musculus with 4 samples.

Results

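The genes of sterol and fatty acid synthesis that SREBP transcription factors control were followed through knockdown of Lx8-SINE B2 in mouse E14 embryonic stem cells. The set held 35 genes, picked by name from the 35976 genes of a read count table. The list was drawn up with earlier results of these data known. All 35 were found, and all passed the filter on low counts, with 104 to 18338 reads per gene and library. They comprised 18 genes of the mevalonate and sterol branch, 6 genes named here as SREBP regulators (5 regulators and the sterol carrier gene Stard4) and 11 genes of the fatty acid branch.

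E14 is an embryonic stem cell line, listed in the labels with the strain 12910la, and it was grown on gelatin in 15% serum with LIF, a cytokine that maintains the undifferentiated state. Both groups consisted of E14 cells. The 2 control libraries had the genotype label wild type. The 2 knockdown libraries came from cells given short hairpin RNA against Lx8-SINE B2, a transcript named after repeat elements. One protocol text covers every sample, with transfection of 1000 ng of pSuper puro vector and, 24 h later, 3 days of selection in 1 µg/ml puromycin; no cloning of single cells is mentioned. The vector given to the control cells is not stated there. Nothing in the labels ties the 2 libraries of either group to separate cultures. All p-values therefore measure the spread between libraries alone, which may be technical. A batch is named in the titles of both knockdown libraries and in neither control title, so batch and knockdown cannot be told apart. The targeted RNA itself was not analysed here.

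Total counts per library ranged from 16383323 to 19867689. All 7 stem cell markers examined were detected, with 1 of 7, Tdgf1, called lower. Their summed level was 6920 to 7000 CPM (read counts scaled to a common library total) in the controls and 4960 to 5610 CPM in the knockdown libraries. Within this sum, Tdgf1 was at 1130 and 1550 CPM in the controls against 571 and 602 CPM. Dppa5a was at 1440 and 1450 CPM in the controls against 664 and 1020 CPM. For Pou5f1, Sox2, Nanog, Zfp42 and Esrrb the groups overlapped. Primitive endoderm markers summed to 12.7 to 18.4 CPM in the controls and 29.7 to 40.5 CPM in the knockdown libraries, with 0 of 6 tested genes called by edgeR. Fibroblast markers summed to 18.1 to 21.6 CPM in the controls and 14.8 to 15.7 CPM in the knockdown libraries. Lum was at 0 counts in every library, and 0 of 4 tested genes were called by edgeR. Within this sum, Thy1 was at 13.3 and 12.9 CPM in the controls and at 2.88 and 5.53 CPM in the knockdown libraries. Pdgfra, also in the primitive endoderm list, was at 2.64 and 4.93 CPM in the controls and at 9.0 and 7.54 CPM in the knockdown libraries. Neural markers summed to 44.7 to 46.9 CPM in the controls and 53.4 to 73.8 CPM in the knockdown libraries. Of these, 1 of 4, Neurod1, was called higher. Trophectoderm markers summed to 39.2 to 47.9 CPM and mesoderm markers to 11.2 to 16.3 CPM, with 0 called in either list. Eomes is in both of these lists. Over all tested genes, edgeR called 0.555% lower and 0.876% higher. The part of these marker shifts in the results on lipid synthesis was not tested. In such bulk samples, fewer cells with a transcript and less of it per cell cannot be told apart.

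SREBPs are made as precursors in the membrane of the endoplasmic reticulum. When sterols are scarce, the escort protein SCAP carries them to the Golgi, where proteases release the active factor, which enters the nucleus and binds sterol regulatory elements in its target genes. INSIG proteins hold SCAP back when sterols are plentiful. SREBP2 mainly drives the enzymes that build cholesterol from acetyl-CoA through mevalonate, farnesyl diphosphate, squalene and lanosterol, and SREBP1 mainly drives those that make, elongate and desaturate fatty acids.

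Since 32 of the 35 genes had log2 fold changes below 0, their promoters were searched for 4 short motifs on both strands, in windows from 250 bases before to 50 bases after each start site (RefSeq, GRCm38.p6, the same coordinates as mm10). The motifs were TCACNCCAC, a core of the sterol regulatory element, CCAAT, the box bound by NF-Y, which cooperates with SREBPs, GGGCGG, the GC box bound by SP1, and CACGTG, the E-box. A window was found by symbol for 28 of the 35 genes, with 37 windows in all, and not for Stard4, Fads1, Scd1, Fdft1, Sqle, Scd2 and Fdps, and no hit of one motif overlapped a hit of another. CCAAT was present for 23 of 28 genes (82.1%), against 43.1% of 11839 tested genes with a window. GGGCGG was also present for 23 of 28 (82.1%), against 65.2%, and CACGTG for 6 of 28 (21.4%), against 11.4%. TCACNCCAC matched only 1 of 28 genes (3.57%), Hmgcs1, against 1.5% of tested genes and 1.24% of all 32851 windows. CCAAT was in 37.4%, GGGCGG in 35.7% and CACGTG in 7.15% of all windows. Genes had 1.32 windows each in the set and 1.27 among all tested genes, and a gene was counted if any of its windows held the motif. A match describes these letters only. For the sterol regulatory element only 1 exact pattern was searched, so a gene without a match may still hold another form of it.

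The 250 bases before the start site are printed 5′ to 3′ on the gene's strand for Hmgcs1, which has the match to the sterol element, for Cyp51 and Insig1, which passed the test, and for Scap, whose values were higher in the knockdown libraries. Dhcr7, which also passed the test and has windows, is not printed. Capitals mark TCACNCCAC and CCAAT, the latter as ATTGG where it lies on the opposite strand.
Hmgcs1, chr13:119690101-119690350, plus strand: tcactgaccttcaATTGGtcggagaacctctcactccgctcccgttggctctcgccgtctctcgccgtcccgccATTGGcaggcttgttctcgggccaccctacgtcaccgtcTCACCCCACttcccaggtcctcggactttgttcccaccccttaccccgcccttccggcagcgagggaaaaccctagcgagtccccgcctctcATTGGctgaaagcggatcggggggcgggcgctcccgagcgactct
Cyp51, chr5:4104698-4104947, minus strand: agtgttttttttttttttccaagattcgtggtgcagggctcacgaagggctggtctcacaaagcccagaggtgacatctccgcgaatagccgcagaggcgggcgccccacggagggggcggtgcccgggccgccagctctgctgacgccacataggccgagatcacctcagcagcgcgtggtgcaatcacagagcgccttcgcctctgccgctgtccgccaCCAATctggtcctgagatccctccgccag
Insig1, chr5:28071162-28071411, plus strand: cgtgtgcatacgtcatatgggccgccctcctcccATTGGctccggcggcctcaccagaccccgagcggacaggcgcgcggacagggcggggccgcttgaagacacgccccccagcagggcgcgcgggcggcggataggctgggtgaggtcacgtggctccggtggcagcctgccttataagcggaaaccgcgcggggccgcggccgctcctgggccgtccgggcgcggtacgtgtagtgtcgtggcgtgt
Scap, chr9:110333038-110333287, plus strand: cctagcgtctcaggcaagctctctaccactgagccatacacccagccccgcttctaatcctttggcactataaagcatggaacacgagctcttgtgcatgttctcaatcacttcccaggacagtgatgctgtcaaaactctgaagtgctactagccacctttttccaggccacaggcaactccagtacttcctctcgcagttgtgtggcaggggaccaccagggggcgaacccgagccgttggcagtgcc
The Hmgcs1 sequence holds TCACCCCAC 137 bases before the start, between CCAAT boxes that begin 176 and 45 bases before it, with another at 237. Cyp51 has 1 CCAAT box, at 29 bases, and Insig1 has 1, at 216 bases. Scap has neither motif in this window or in its second listed window.

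The comparison of knockdown with control cells asked which transcripts differ when this RNA is targeted. Transcripts of lipid synthesis were mostly lower in the knockdown libraries, and the lowest log2 fold changes were those of the desaturase genes Scd1 and Scd2 and of Dhcr7, the last enzyme of cholesterol synthesis. With edgeR's quasi-likelihood test and Benjamini-Hochberg adjustment over 16209 genes, 6 of the 35 genes fell at an adjusted p below 0.05 and 0 rose. Among all tested genes, 0.555% were called lower and 0.876% higher. The 6 genes were Scd1, Dhcr7, Fdps, Scd2, Cyp51 and Insig1. At an adjusted p below 0.1, 15 of the 35 were lower and 1, Scap, was higher, against 2.25% and 3.36% of all tested genes. At an unadjusted p below 0.05 the counts were 21 lower and 1 higher, against 8.58% and 11.0%. limma-voom called 5 lower and 0 higher, against 0.561% and 0.925% of all genes. DESeq2 called 17 lower and 1 higher, against 3.18% and 3.89%. The log2 fold change was below 0 in 32 of the 35 genes (49.5% of all genes), with a median of -0.62 beside a median of 0.01 over all tested genes. In 26 of the 35 both knockdown libraries lay below both controls (24.6% of all genes), and in 1 they lay above both (27.3% of all genes). The groups overlapped in the other 8, while 51.9% of all genes had groups that did not overlap in either direction. As a share of all counts, the 35 genes together made up 0.497% and 0.493% of the control libraries and 0.353% and 0.329% of the knockdown libraries. Without a filter on low counts edgeR called 17 lower and 1 higher, against 2.72% and 3.75% of all genes, and with the replicate number as a block 9 lower and 1 higher, against 1.41% and 2.64%.

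**Figure D1:**
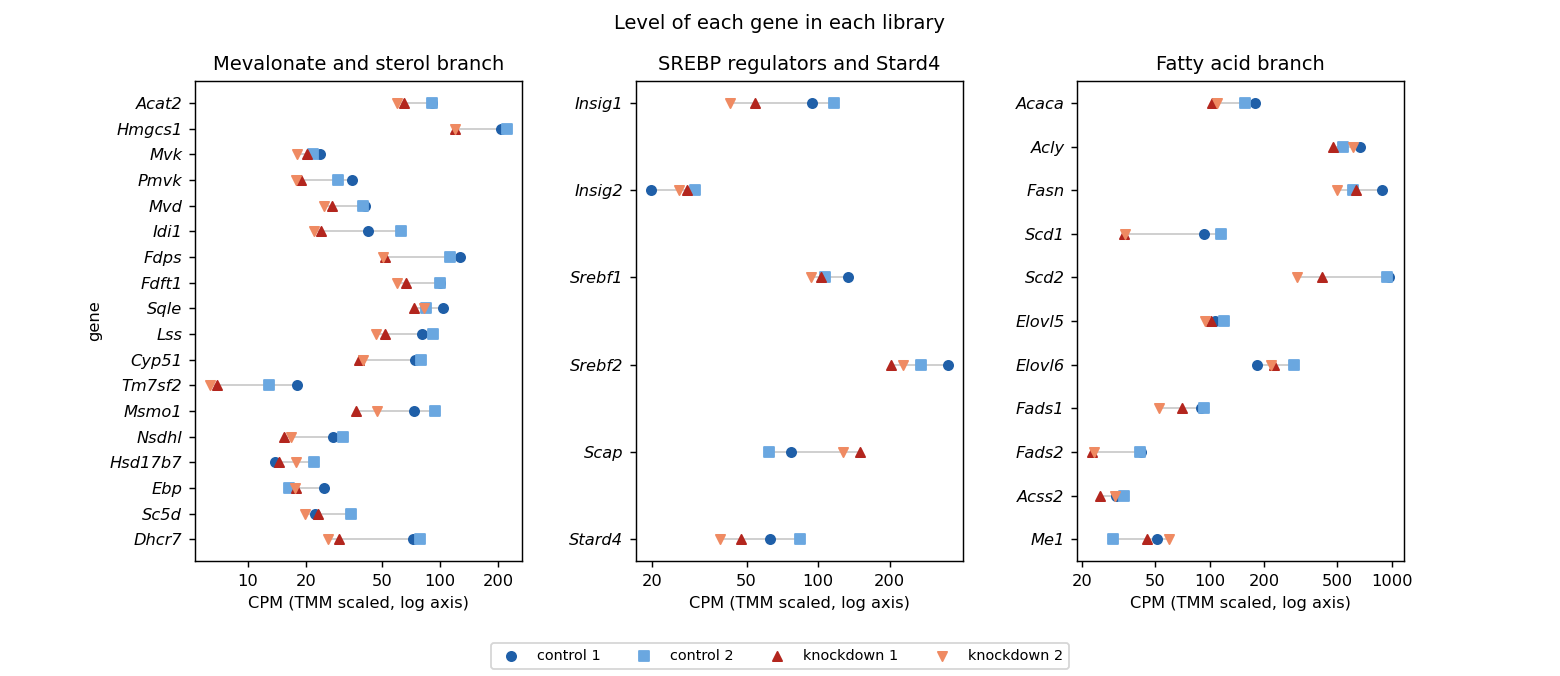
Level of each of the 35 genes in each of the 4 libraries, in CPM on a log axis, with 1 panel per gene group. Enzymes of the sterol branch are listed from early to late steps, and grey lines span the 4 libraries. Both knockdown libraries sit below both controls for 26 genes and above both for 1, Scap.

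In the mevalonate and sterol branch, all 18 genes had log2 fold changes below 0, from -1.43 for Dhcr7 to -0.16 for Hsd17b7, and the median was -0.81. At the threshold 3 of 18 fell and 0 rose, against 0.555% and 0.876% of all genes. The summed level of the branch was 1175 and 1223 CPM in the controls and 697 and 693 CPM in the knockdown libraries, so libraries of a group differed far less than the groups did. In 15 of 18 genes both knockdown libraries lay below both controls (24.6% of all genes). The groups overlapped in the other 3, Hsd17b7, Ebp and Sc5d.

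The entry steps came first in the plot of levels by library. Hmgcs1, which makes HMG-CoA (chromosome 13, from 119690351 to 119708260), was at 208 and 222 CPM in the controls and at 119 and 120 CPM in the knockdown libraries. The knockdown libraries were nearly equal and well below both controls. Its log2 fold change was -0.85 (standard error, SE, 0.16), and its adjusted p of 0.0521 with edgeR was just short of the threshold. With all libraries, DESeq2, the fit without a filter on low counts and the fit with the replicate number as a block called Hmgcs1 lower. Acat2, the cytosolic thiolase before it, was at 90.7 CPM in both controls and at 64.5 and 59.8 CPM in the knockdown libraries (log2 fold change -0.55, edgeR adjusted p = 0.141). The mevalonate kinase gene Mvk, the phosphomevalonate kinase gene Pmvk and the diphosphomevalonate decarboxylase gene Mvd had log2 fold changes of -0.25, -0.81 and -0.62 and did not pass. Mvk thus lay closest to the median of all genes among these entry enzymes.

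At the isoprenoid steps, Idi1, the isomerase that makes dimethylallyl diphosphate, was at 41.9 and 62.7 CPM in the controls and at 23.9 and 22.1 CPM in the knockdown libraries. The controls differed from each other here by 0.58 on the log2 scale, and the log2 fold change of -1.18 did not pass (edgeR adjusted p = 0.0589). Fdps, which makes farnesyl diphosphate (chromosome 3, from 89093588 to 89101967), was at 127 and 112 CPM in the controls and at 51.7 and 50.7 CPM in the knockdown libraries. Those values were tight within each group and far apart between groups, and Fdps fell by 1.22 on the log2 scale (SE 0.18, edgeR adjusted p = 0.0251). Fdft1, the squalene synthase gene, was at 99.3 CPM in both controls and at 66.0 and 59.5 CPM in the knockdown libraries (log2 fold change -0.66, edgeR adjusted p = 0.0946). The next enzyme, squalene epoxidase, is a control point of the pathway, and its gene Sqle was at 103 and 84.2 CPM in the controls against 73.0 and 82.8 CPM (log2 fold change -0.26, edgeR adjusted p = 0.481).

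The enzymes that make and process lanosterol came next. Cyp51, the lanosterol demethylase gene on chromosome 5 from 4080674 to 4104697, was at 74.3 and 79.5 CPM in the controls and at 37.6 and 39.6 CPM in the knockdown libraries. The groups were well apart, and Cyp51 fell by 1.00 on the log2 scale (SE 0.18, edgeR adjusted p = 0.0461). With scaling by library totals only its call was lost (adjusted p = 0.0618). Lss, which closes the sterol rings, had 80.8 and 91.9 CPM in the controls against 51.6 and 46.5 CPM. Its log2 fold change of -0.82 did not pass (edgeR adjusted p = 0.0702). Msmo1, the C4-methyl oxidase gene, was at 72.8 and 93.4 CPM in the controls and at 36.4 and 46.8 CPM in the knockdown libraries (log2 fold change -0.999, edgeR adjusted p = 0.0672). Nsdhl, which acts with it in removing those methyl groups, was at 27.6 and 31.3 against 15.4 and 16.8 CPM (log2 fold change -0.87, edgeR adjusted p = 0.0978). The sterol reductase gene Tm7sf2 was the least abundant of these, at 17.9 and 12.9 CPM in the controls and 6.85 and 6.32 CPM in the knockdown libraries (log2 fold change -1.22, edgeR adjusted p = 0.0911). Its controls differed by 0.48 on the log2 scale, yet both stood above both knockdown libraries.

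The remaining genes of the branch were split. Dhcr7, the reductase that yields cholesterol, spans chromosome 7 from 143823167 to 143848410. Its level was 71.8 and 78.4 CPM in the controls and 29.6 and 26.1 CPM in the knockdown libraries. The groups were widely apart, and Dhcr7 fell by 1.43 on the log2 scale (SE 0.19, edgeR adjusted p = 0.0197). Hsd17b7, the 3-ketosteroid reductase gene, Ebp, the sterol isomerase gene, and Sc5d, the desaturase gene, had log2 fold changes of -0.16, -0.22 and -0.40 (edgeR adjusted p = 0.823, 0.715 and 0.458). In each of these 3 genes the 2 controls differed by more than the groups did, by 0.68, -0.61 and 0.63 on the log2 scale (control replicate 2 over replicate 1). No difference between the groups was detectable for them with these libraries.

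**Figure D2:**
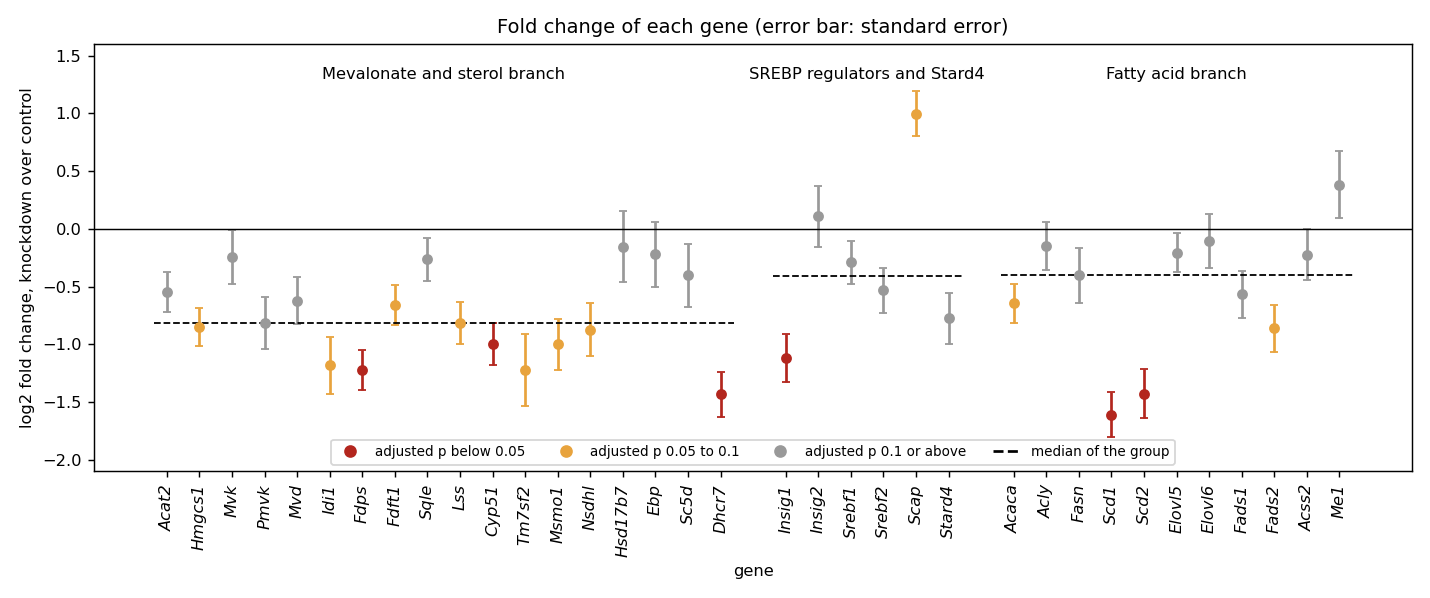
Log2 fold change of each of the 35 genes, knockdown over control, with its standard error; colour gives the edgeR adjusted p and dashed lines the median of each group of genes. The medians are -0.81 for the sterol branch, -0.41 for the regulators and -0.40 for the fatty acid branch, and Scap stands alone near 1.00.

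The 6 regulator genes had values on both sides of 0. At the threshold 1 of 6, Insig1, fell and 0 rose, against 0.555% and 0.876% of all genes. Their median log2 fold change was -0.41, or -0.25 without control replicate 1, and values ran from -1.12 for Insig1 to 1.00 for Scap. Insig1, itself an SREBP target, lies on chromosome 5 from 28071412 to 28078662. It was at 94.2 and 117 CPM in the controls and at 54.5 and 42.4 CPM in the knockdown libraries. Insig1 fell by 1.12 on the log2 scale (SE 0.21, edgeR adjusted p = 0.049), and it had the weakest call of the 6. Its call was lost in 7 of 12 alternatives, with adjusted p-values from edgeR of 0.0501 to 0.0717 under the 3 other scalings and 0.053 with a filter at a mean of 1 CPM, 0.0616 without control replicate 2 and 0.221 without knockdown replicate 2, and 0.0515 from limma-voom. Insig2, its paralogue, was at 19.8 and 30.4 CPM in the controls and at 28.2 and 25.96 CPM in the knockdown libraries. The knockdown values lay between the controls, and the log2 fold change was 0.11 (SE 0.26, edgeR adjusted p = 0.86). Whether the responses of the Insig genes differ from each other was not tested.

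Scap, on chromosome 9 from 110333288 to 110384949, was the 1 gene of the set with both knockdown libraries above both controls. It was at 76.8 and 62.1 CPM in the controls and at 150 and 128 CPM in the knockdown libraries. Its log2 fold change was 1.00 (SE 0.19), and its edgeR adjusted p of 0.0521 missed the threshold. With all libraries, DESeq2, the fit without a filter on low counts and the fit with the replicate number as a block called it higher. Exons of an antisense gene cover 13.2% of the exon length of Scap, and strand use in the counting is not given in the sources used here, so reads from that gene could be part of these values.

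The genes of the SREBPs themselves were not called. Srebf2, which encodes SREBP2, was at 351 and 270 CPM in the controls and at 201 and 228 CPM in the knockdown libraries. The groups did not overlap, but the controls were 0.38 apart on the log2 scale, and the log2 fold change was -0.53 (SE 0.20, edgeR adjusted p = 0.189). Srebf1, which encodes SREBP1, was at 133 and 107 CPM in the controls and at 103 and 93.5 CPM in the knockdown libraries (log2 fold change -0.29, SE 0.18, edgeR adjusted p = 0.43). Without control replicate 1 the values were -0.33 for Srebf2 and -0.13 for Srebf1, and without control replicate 2 they were -0.76 for Srebf2 and -0.49 for Srebf1. Per kilobase of exon, Srebf2 was at 43.2 CPM in the controls and Srebf1 at 21.3 CPM, so the Srebf2 transcript was the more abundant. Stard4, a sterol carrier gene that SREBP2 induces, was at 63.0 and 83.9 CPM in the controls and at 47.2 and 38.6 CPM in the knockdown libraries (log2 fold change -0.78, edgeR adjusted p = 0.113).

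The fatty acid branch was uneven. At the threshold 2 of 11 genes, Scd1 and Scd2, fell and 0 rose, against 0.555% and 0.876% of all genes. The log2 fold change was below 0 in 10 of 11 (49.5% of all genes), and the median was -0.40. The summed level was 3301 and 2978 CPM in the controls and 2151 and 2033 CPM in the knockdown libraries. Most of that difference was the abundant Scd2.

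Scd1 and Scd2 encode stearoyl-CoA desaturases, which make monounsaturated fatty acids, and are neighbours on chromosome 19. Scd2, from 44293676 to 44306864, was at 969 and 948 CPM in the controls and at 413 and 301 CPM in the knockdown libraries. The controls were nearly equal and the knockdown libraries differed from each other, without overlap of the groups. Scd2 fell by 1.43 on the log2 scale (SE 0.21, edgeR adjusted p = 0.0266). Scd1, from 44394450 to 44407709, was at 92.7 and 115 CPM in the controls and at 33.9 and 34.3 CPM in the knockdown libraries. It fell by 1.61 on the log2 scale, which is 3.05-fold (SE 0.20, edgeR adjusted p = 0.0166), and it was called in each of the 12 alternative analyses. Per kilobase of exon the control level was 175 CPM for Scd2 and 21.3 CPM for Scd1, and Scd2 had the highest such level of the 35 genes. Few exact 50-base stretches were shared with transcripts of other genes, 4.56% in Scd1 and 3.97% in Scd2, mainly between these genes and Scd3.

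The genes of the enzymes that supply and build palmitate had log2 fold changes nearer to 0. Acly, which makes cytosolic acetyl-CoA from citrate, was at 668 and 538 CPM in the controls and at 475 and 612 CPM in the knockdown libraries. These groups overlapped (log2 fold change -0.15, edgeR adjusted p = 0.738). Acaca, the acetyl-CoA carboxylase gene, was at 177 and 156 CPM in the controls and at 104 and 109 CPM in the knockdown libraries, without overlap (log2 fold change -0.65, edgeR adjusted p = 0.0981). Fasn, the fatty acid synthase gene, was at 890 and 611 CPM in the controls and at 635 and 498 CPM in the knockdown libraries. Its controls differed by 0.54 on the log2 scale, more than the log2 fold change of -0.40 (edgeR adjusted p = 0.389). That value was -0.11 without control replicate 1, -0.70 without control replicate 2 and -0.24 without knockdown replicate 2. Acss2, which makes acetyl-CoA from acetate, had a log2 fold change of -0.22. Me1, the malic enzyme that yields NADPH, was the 1 gene of the branch above 0, at 0.38 (SE 0.29, edgeR adjusted p = 0.514), and its controls were 51.2 and 29.4 CPM.

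Among the other desaturase and elongase genes, the desaturase gene Fads2 was at 42.0 and 41.7 CPM in the controls. In the knockdown libraries it was at 22.7 and 23.3 CPM. The values within each group were almost the same, with a log2 fold change of -0.86 and a standard error of 0.20 (edgeR adjusted p = 0.0762). Fads1, its neighbour on chromosome 19, was at 89.8 and 93.7 CPM in the controls and at 70.9 and 52.9 CPM in the knockdown libraries (log2 fold change -0.57, edgeR adjusted p = 0.176). The elongase genes Elovl5 and Elovl6 had log2 fold changes of -0.21 and -0.10 (edgeR adjusted p = 0.548 and 0.849). Both knockdown values of Elovl6, 225 and 217 CPM, lay between the controls at 183 and 291 CPM.

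**Figure D3:**
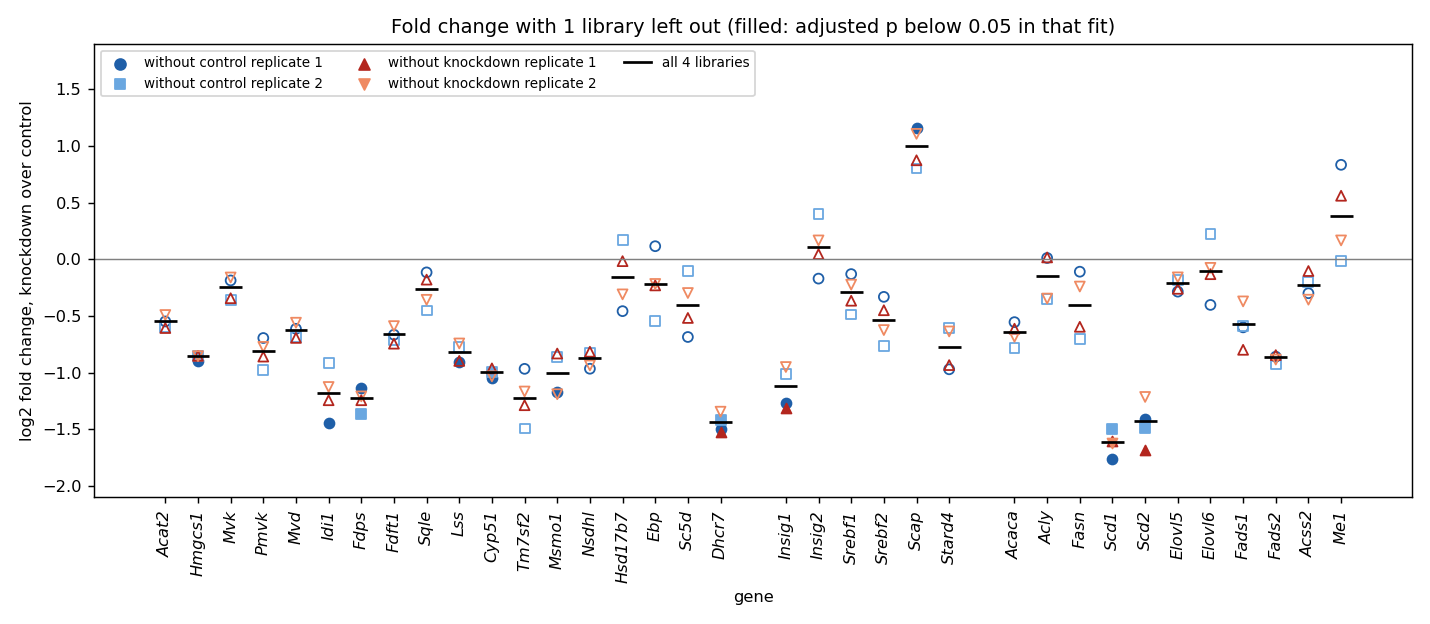
Log2 fold change of each gene with all 4 libraries (black bar) and with 1 library left out (symbols), filled where the adjusted p in that fit was below 0.05. Scd1 is filled in all 4 fits, and 1 gene is called without knockdown replicate 2.

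Which genes were called differed between fits with 1 library left out, and the standard errors differed too. For the 6 genes called with all libraries, standard errors were 0.175 to 0.21 in the fit to all of them. They were 0.165 to 0.207 without a control library and 0.323 to 0.363 without a knockdown library. How far these larger standard errors account for lost calls was not tested. Without knockdown replicate 2, 1 of the 35 genes, Scd1, was called, and the calls of Dhcr7 at -1.34, Fdps at -1.21, Scd2 at -1.21, Cyp51 at -1.03 and Insig1 at -0.95 were lost (0.265% of all genes were called lower in that fit). Without knockdown replicate 1, 4 of 35 were called lower, and Fdps at -1.24 and Cyp51 at -0.96 were not (0.65% of all genes). Without control replicate 2, 6 genes were called lower and the call of Insig1 at -1.01 was lost, while Hmgcs1 passed (1.1% of all genes lower, 0.955% higher). Without control replicate 1, 10 were called lower and 1, Scap, higher (1.15% and 2.26% of all genes). The 6 genes called with all libraries kept log2 fold changes of -0.95 or lower in these fits. Genes whose direction turned when 1 library was left out were Hsd17b7, Ebp, Insig2, Acly, Elovl6 and Me1, none of them called. Among other uncalled genes, Sqle was at -0.12 without control replicate 1 and -0.45 without control replicate 2, Sc5d at -0.69 and -0.10, and Fads1 at -0.37 without knockdown replicate 2. Mvk was at -0.16 without knockdown replicate 2, and Acss2 at -0.10 and -0.36 without knockdown replicates 1 and 2.

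Neighbouring pathways were compared through 6 lists with 78 tested genes. In the lists for SREBP processing, isoprenoid side branches, sterol trafficking, and fatty acid activation and elongation, edgeR called 0 genes in either direction. Among all tested genes it called 0.555% lower and 0.876% higher, so 0 calls do not set lists this short apart from all genes. The medians of these lists were -0.03 over 9 genes, -0.09 over 14, -0.03 over 11 and -0.24 over 24, beside 0.01 over all tested genes. Log2 fold changes were below 0 in 6 of 9, 8 of 14, 6 of 11 and 18 of 24 genes (49.5% of all genes). In the fatty acid list, 9 genes were lower and 4 higher without overlap of the groups, against 24.6% and 27.3% of all genes. limma-voom called 0 genes in these 4 lists, against 0.561% lower and 0.925% higher of all genes. DESeq2 called 1 lower in SREBP processing, 0 in the isoprenoid list, 1 lower in sterol trafficking and 4 lower and 2 higher in fatty acid activation, against 3.18% lower and 3.89% higher of all genes. At an unadjusted p below 0.05 the lower and higher counts were 1 and 1, 2 and 0, 2 and 3, and 6 and 2, against 8.58% and 11.0% of all genes. Mbtps1 and Mbtps2, which encode the proteases that release SREBPs, were not called, at 0.31 and -0.33 on the log2 scale.

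Abca1, which encodes the main exporter of cellular cholesterol and is induced by the sterol-activated receptors LXR, rose. It was at 28.3 and 24.7 CPM in the controls and at 80.9 and 72.7 CPM in the knockdown libraries, a log2 fold change of 1.54 (SE 0.20, edgeR adjusted p = 0.0173). It was the 1 called gene of the 6 in the list of LXR factors and sterol export, whose median was -0.07, against 0.876% of all genes called higher. Abcg1, another sterol exporter in that list, was at -0.95 on the log2 scale and did not pass (edgeR adjusted p = 0.137). In the list for mitochondrial fatty acid oxidation 1 of 14 genes, Cpt1c, rose, and 0 fell (edgeR, against 0.876% and 0.555% of all genes). At an unadjusted p below 0.05 the list had 3 higher and 0 lower (11.0% and 8.58% of all genes), DESeq2 called 2 higher and 0 lower (3.89% and 3.18%), and limma-voom called 1 higher and 0 lower (0.925% and 0.561%). Cpt1c encodes a carnitine palmitoyltransferase isoform known from the brain, and its part in mitochondrial oxidation was not tested. Its values were 55.3 and 49.0 CPM in the controls and 142 and 123 CPM in the knockdown libraries (log2 fold change 1.35, edgeR adjusted p = 0.0197). Abca1 and Cpt1c were each called in all 12 alternative analyses. The list median was 0.06, and Cpt1a, the broadly expressed isoform, stood at -0.29 on the log2 scale (edgeR adjusted p = 0.545).

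**Figure D4:**
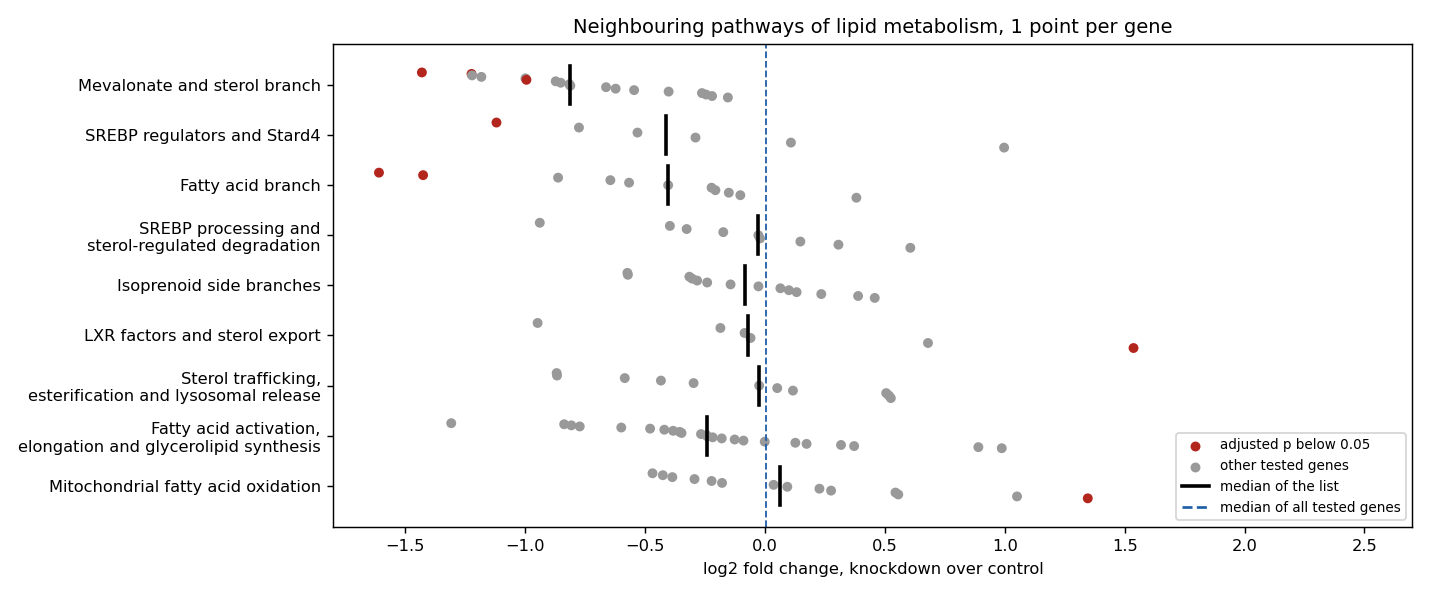
Log2 fold change of each tested gene in the 3 groups of lipid synthesis genes and in 6 neighbouring lists, with the list median (black bar) and the median of all tested genes (dashed line). The sterol branch has its median at -0.81, while the medians of the 6 neighbouring lists lie between -0.24 and 0.06.

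Some counts can hold reads of other genes. For 7 of the 35 genes over 10% of the exact 50-base stretches of their transcripts also occur in transcripts of other genes in GENCODE M21. These were Acat2 (39.1%, mainly its neighbour Acat3), Acaca (30.4%), Me1 (28.3%), Fdft1 (26.5%, mainly the overlapping Ctsb), Fdps (26.2%), Idi1 (25.3%) and Hmgcs1 (11.6%). Ctsb, on the opposite strand at 128 to 148 CPM, had a log2 fold change of -0.09, and Acat3 was at 1.70 to 2.59 CPM. Tcp1, which also shares stretches with Acat2, was at 380 and 551 CPM in the controls and at 317 and 330 CPM in the knockdown libraries, and its log2 fold change of -0.53 was close to that of Acat2. Rasgrp2, which shares stretches with Hmgcs1, was at 26.05 and 26.2 against 9.68 and 14.7 CPM (log2 fold change -1.10, edgeR adjusted p = 0.0909). How many reads such genes contributed to one another was not tested. Without these genes, an alternative chosen after seeing the data, the medians were -0.81 for the sterol branch and -0.40 for the fatty acid branch, and the regulator group held none of them.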

How the data were processed

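The values are raw counts of reads per gene that the authors deposited without normalizing them, 4 libraries in 1 table; per the submitters' processing notes, cutadapt, HISAT2 and featureCounts were used with the mm10 build. Their versions, the annotation, the strand setting and the handling of multimapped reads are all not given in the sources used. The 92 spike-in rows, all 0, were left out. Another 27 rows, with symbols turned into dates, held 0.151% to 0.177% of a library's counts and stayed in.

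filterByExpr of edgeR 4.0.16 (R 4.3.3) set the tested genes. Counts were scaled by TMM (factors 0.9535 to 1.029) and compared with the quasi-likelihood F-test, group being the only term, with Benjamini-Hochberg adjustment over all tested genes. Standard errors (SE) were computed as the unsigned log2 fold change over the root of F. CPM are TMM scaled; levels per kilobase divide by GENCODE M21 exon length. Alternatives used other scalings and filters, DESeq2 1.42.0, limma-voom (limma 3.58.1), a replicate block, an adjusted p of 0.1 and each library left out. The fit was tested on simulated counts.

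The genes, lists and motifs were chosen with earlier results of these data known. Values in every library are given for genes with an adjusted p below 0.1, the regulators and the 2 most abundant genes of each group; other values were added after they were seen. From each neighbouring list called genes are named; Mbtps1, Mbtps2, Abcg1 and Cpt1a were chosen after their values were seen.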

Additional observations from a re-analysis of the deposited data

How the results depend on the processing

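The number of libraries, 2 a group, limits the precision. The count of all called genes was 232, of which 6 were in the set. It was 1717 with 18 in the set without a filter on low counts, 1074 with 18 with DESeq2, and 910 with 16 at an adjusted p below 0.1. With 1 library left out it ranged from 153 to 587, with 1 to 11 in the set; those fits and the block keep 1 residual degree of freedom, and the lone library is assumed to vary like the other group. With the replicate number as a block, 656 genes and 10 of the set were called; deviations of libraries with the same number correlated at -0.05, so the numbers were not taken as pairing, and apart from counts the block ended no call in the set. The fatty acid median was -0.404, and -0.429 with RLE scaling, -0.432 with upper quartile scaling, -0.345 with library totals only and -0.44 with DESeq2. The regulator median was -0.411, and -0.357 with library totals only. With 1 library left out they ranged from -0.595 to -0.356 and from -0.546 to -0.25, and the sterol median from -0.823 to -0.757. Signs turned for 6 uncalled genes. With 1 library left out they ranged from -0.457 to 0.171 (Hsd17b7), -0.547 to 0.116 (Ebp), -0.17 to 0.399 (Insig2), -0.35 to 0.017 (Acly, also 0.012), -0.402 to 0.221 (Elovl6) and -0.017 to 0.834 (Me1). The turned values came without control replicate 2 for Hsd17b7, Elovl6 and Me1, without control replicate 1 for Ebp, Insig2 and Acly, and for Acly also without knockdown replicate 1. The cause was not tested.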
